A study of Homo sapiens with 15 samples.

Results

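The miR-130, miR-301 and miR-454 family was followed through FTO knockdown and through immunoprecipitation of N6-methyladenosine (m6A) in HEK293 cells. Its members were taken by name, as every listed mature miRNA of the hairpins miR-130a, miR-130b, miR-301a, miR-301b and miR-454. This gave 9 of the 2418 miRNAs counted in the knockdown libraries and 8 of the 2189 counted in the RIP-seq libraries (RNA immunoprecipitation followed by sequencing). There were 5 strands from the 3′ arm of a hairpin (hsa-miR-130a-3p, hsa-miR-130b-3p, hsa-miR-301a-3p, hsa-miR-301b and hsa-miR-454-3p) in both sets of libraries. Of the strands from the 5′ arm, hsa-miR-130a-5p, hsa-miR-130b-5p and hsa-miR-454-5p had values in both, whereas hsa-miR-301a-5p was analysed in the knockdown libraries alone.

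All 15 libraries were made from small RNA of FTO1C1, FTO2D4 and FTO3C3, which are Flp-In T-Rex derivatives of HEK293, a line of human embryonic kidney origin. For the knockdown, each derivative, uninduced, was transfected with 10 nM of scrambled siRNA or of siRNA against FTO and harvested after 48 h. For RIP-seq, small RNA of the same derivatives, labelled as untreated, was sequenced as input, after precipitation with an anti-m6A antibody, or after precipitation with control IgG. Each of the 5 groups thus held 3 libraries, 1 from each derivative, so that the spread within a group covers differences between derivatives as well as between preparations. FTO mRNA is outside small RNA libraries, and the depth of the knockdown was not checked here.

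A miRNA is cut from a hairpin precursor, and a strand from either arm can be loaded onto an Argonaute protein to repress mRNAs. Bases near its 5′ end, the seed, pair with the target, so that miRNAs of the same seed can bind the same mRNAs. The 3′ arm strands of this family are such a set, and the 5′ arm strands are mostly the less abundant partners. m6A is a methyl mark on adenosine, which FTO, a demethylase, can remove.

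The mature sequences show what the family shares and where it differs, and 8 of the 9 members had an entry in RefSeq (GRCh38.p14). hsa-miR-301b was matched to the mature entry of its hairpin that RefSeq names hsa-miR-301b-3p. In the following sequences, written 5′ to 3′, capitals mark the seed (bases 2 to 8). The 3′ arm strands with an entry have the same seed.
hsa-miR-130b-3p: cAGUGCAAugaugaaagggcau
hsa-miR-301a-3p: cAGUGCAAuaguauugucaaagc
hsa-miR-301b: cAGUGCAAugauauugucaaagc
hsa-miR-454-3p: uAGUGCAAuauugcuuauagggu

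The 5′ arm strands have other seeds, of which those of hsa-miR-130a-5p and hsa-miR-130b-5p differ in their last base.
hsa-miR-130a-5p: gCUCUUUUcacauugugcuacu
hsa-miR-130b-5p: aCUCUUUCccuguugcacuac
hsa-miR-301a-5p: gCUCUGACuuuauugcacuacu
hsa-miR-454-5p: aCCCUAUCaauauugucucugc

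hsa-miR-301a-3p and hsa-miR-301b were identical at 21 of 23 positions, and differed by A10G and G11A (the base of hsa-miR-301a-3p, the position from the 5′ end, the base of hsa-miR-301b). Reads that matched several miRNAs were given by the authors to the reference with the most matching bases, so reads of this pair that miss those positions may be divided between them. hsa-miR-130b-3p shared its first 12 bases with hsa-miR-301b and its first 9 with hsa-miR-301a-3p, but over all 22 compared positions only 13 and 11 bases were identical. In GRCh38.p14, hsa-miR-301b lies at chr22:21653025-21653047 and hsa-miR-130b-3p at chr22:21653354-21653375, both on the plus strand, with 245 bases between their hairpins. hsa-miR-454-3p (chr17:59137787-59137809) and hsa-miR-301a-3p (chr17:59151149-59151171) lie on the minus strand, in hairpins 13263 bases apart that are both within the gene SKA2. The strand hsa-miR-130a-5p maps to chr11:57641212-57641233, on the plus strand.

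Library totals ranged from 1991317 to 3876806 miRNA reads in the knockdown, from 1408702 to 1500357 in the inputs, from 569501 to 4973238 after m6A precipitation and from 186446 to 786688 after IgG precipitation. Levels are given as reads per 1000000 miRNA reads (RPM), with no scaling by length. miR-6080 took 15.5 to 71.6% of the reads in the RIP-seq libraries and the family 0.0161 to 0.765%. In the IgG libraries, all 5 of the 3′ arm strands together had 42, 71 and 17 reads (FTO1C1, FTO2D4 and FTO3C3), so ratios to IgG are coarse and their intervals cover counting error only.

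In cells with scrambled siRNA, 3 strands made up most of the family. hsa-miR-130b-3p had 1591 ± 303 RPM, hsa-miR-301a-3p 1392 ± 139 and hsa-miR-301b 1009 ± 312 (mean ± SD, n = 3). The ranges of neighbours in this order overlapped. Within each derivative, however, hsa-miR-301b was the lowest of these 3, with 973, 1337 and 716 RPM in FTO1C1, FTO2D4 and FTO3C3. hsa-miR-130b-3p was above hsa-miR-301a-3p in FTO1C1 and FTO2D4 and below it in FTO3C3, so the order of that pair was not settled. Next came hsa-miR-130a-3p with 387 ± 51.0 RPM, hsa-miR-130b-5p with 376 ± 44.4 and hsa-miR-454-3p with 320 ± 28.1, whose ranges also overlapped from neighbour to neighbour. hsa-miR-454-5p (121 ± 17.2 RPM), hsa-miR-301a-5p (24.2 ± 5.16) and hsa-miR-130a-5p (10.1 ± 4.88) stood below them without overlap. Every scrambled siRNA library held 15 RPM or more of 8 of the 9 members, hsa-miR-130a-5p being the exception.

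**Figure D1:**
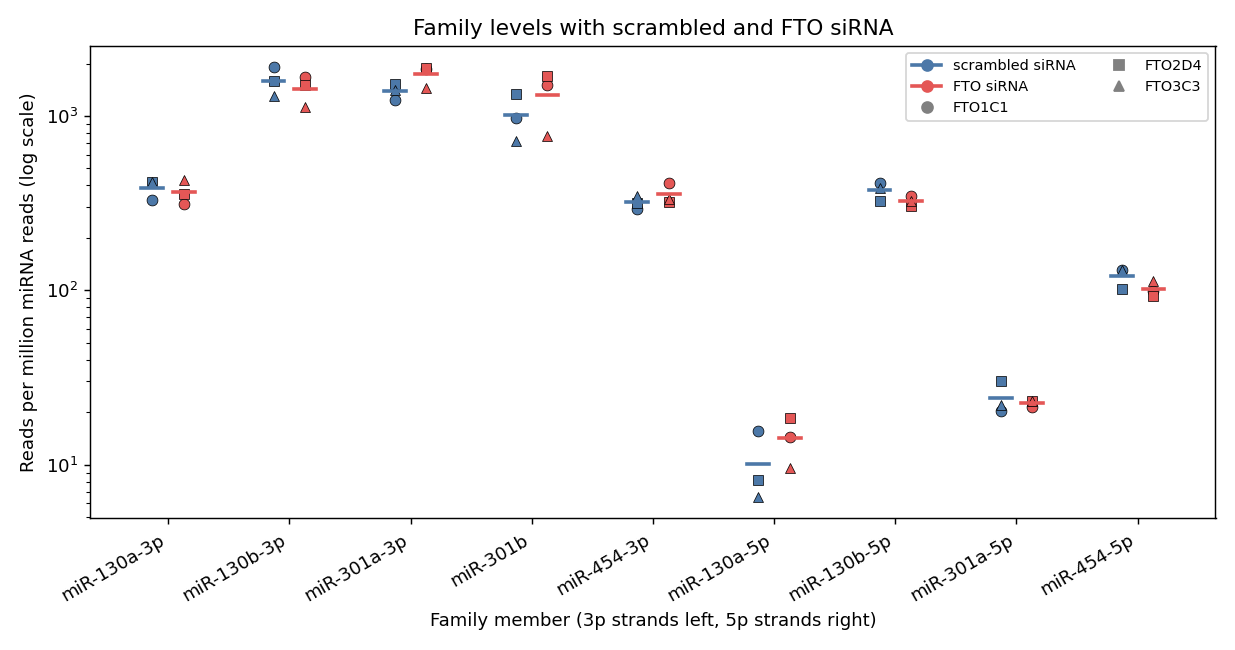
Level of each of the 9 family members in RPM (log axis) in the 3 scrambled siRNA and 3 FTO siRNA libraries. Symbols are the derivatives FTO1C1, FTO2D4 and FTO3C3 and horizontal lines the group means. The points of both groups overlap for every member.

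The first comparison asked whether FTO knockdown altered the levels of these miRNAs. None of the 9 members passed the test. hsa-miR-301a-3p and hsa-miR-301b were higher with FTO siRNA in 3 of 3 derivatives, and hsa-miR-130b-3p, hsa-miR-130b-5p and hsa-miR-454-5p were lower in 3 of 3, none of them past the test.

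hsa-miR-301b had 973, 1337 and 716 RPM with scrambled siRNA and 1499, 1703 and 765 RPM after FTO siRNA (FTO1C1, FTO2D4 and FTO3C3 in this order, as in all lists of values that follow). The difference was widest in FTO1C1, and the groups overlapped because FTO3C3 was low in both. Its log2 fold change was 0.36 (SE 0.15, 95% interval 0.01 to 0.70, edgeR quasi-likelihood adjusted p = 0.178). hsa-miR-301a-3p went from 1243, 1519 and 1413 RPM to 1870, 1877 and 1455 RPM. Here too FTO3C3 hardly differed between the siRNAs, and the log2 fold change was 0.31 (SE 0.15, edgeR adjusted p = 0.223). These values depend on the scale: with TMM factors, which set the typical miRNA to no change, hsa-miR-301a-3p stood at 0.02 and hsa-miR-301b at 0.06.

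hsa-miR-130b-3p had 1899, 1581 and 1294 RPM with scrambled siRNA and 1669, 1511 and 1122 RPM after FTO siRNA. Each derivative was lower, with ratios of FTO to scrambled siRNA of 0.879, 0.956 and 0.867, so the step was smallest in FTO2D4. The groups overlapped, and the log2 fold change was -0.15 (SE 0.14, edgeR adjusted p = 0.489). hsa-miR-130a-3p had 328, 416 and 417 RPM against 311, 359 and 432 RPM, which was lower in FTO1C1 and FTO2D4 and higher in FTO3C3. hsa-miR-454-3p had 292, 318 and 349 RPM against 411, 320 and 333 RPM and a log2 fold change of 0.14 (SE 0.17), which turned to -0.15 with TMM factors and with DESeq2. It was higher in FTO1C1 and close to its control level in the other derivatives.

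Among the 5′ arm strands, hsa-miR-130b-5p had 414, 327 and 385 RPM with scrambled siRNA and 347, 306 and 327 RPM after FTO siRNA. hsa-miR-454-5p had 131, 101 and 132 RPM against 99.4, 92.4 and 113 RPM. Both were lower in each derivative, with log2 fold changes of -0.19 (SE 0.15) and -0.25 (SE 0.17). The scale mattered for the lower strands as well: TMM factors gave -0.44 for hsa-miR-130b-3p, -0.49 for hsa-miR-130b-5p and -0.54 for hsa-miR-454-5p, and DESeq2 gave -0.45, -0.49 and -0.55 (DESeq2 adjusted p = 0.0932, 0.0823 and 0.0932). hsa-miR-301a-5p and hsa-miR-130a-5p stayed between 6.53 and 30.03 RPM in all 6 libraries and moved in different directions in different derivatives.

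Of all 2374 miRNAs tested, edgeR called 4.97% higher and 0.505% lower with FTO siRNA, against 0 and 0 of the 9 members. The median log2 fold change of the members was -0.08, and that of all tested miRNAs was 0.29. At an unadjusted p under 0.05 there was 1 member, hsa-miR-301b. DESeq2 also called 0, without an adjusted p for hsa-miR-130a-5p and hsa-miR-301a-5p. The smallest interval of a member, that of hsa-miR-130b-3p, reached from -0.46 to 0.15, so a fall or a rise within these bounds was compatible with its data. The smallest change that 3 derivatives could detect was not computed. Whole cultures were sequenced and levels are shares of a library's miRNA reads, so amounts per cell, and differences between cells, were not measured.

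Since strands counted in the same library share its total, the fold changes of 2 strands can be compared without any scaling. Within derivatives, the log2 fold change of hsa-miR-130b-3p was below that of hsa-miR-301b by -0.81, -0.41 and -0.30 (mean -0.51 ± 0.27) and below that of hsa-miR-301a-3p by -0.78, -0.37 and -0.25 (mean -0.46 ± 0.28). The gap was widest in FTO1C1 and had the same sign in 3 of 3 derivatives for both pairs. hsa-miR-301a-3p and hsa-miR-301b moved almost in step, with a difference of -0.04 ± 0.01. Of the 10 pairs compared, none passed, since p = 0.25 is the smallest value that the exact two-sided sign-flip permutation test can give with 3 derivatives (0.357 after adjustment over the pairs). As a share of the reads on the 3′ arm strands, hsa-miR-301a-3p and hsa-miR-301b together made up 46.8, 55.2 and 50.8% with scrambled siRNA and 58.5, 62.0 and 54.1% after FTO siRNA. This share was higher in each derivative, but the groups overlapped.

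The second experiment asked which miRNAs are bound by the anti-m6A antibody. Relative to control IgG, 6 of the 8 members were called higher in the m6A libraries, as were 40.2% of the 2181 miRNAs tested. hsa-miR-130b-3p and hsa-miR-130a-3p led, with a mean ratio of m6A to IgG RPM of 33.9 ± 14.7 and 10.3 ± 2.42 (SD, n = 3). They were followed by hsa-miR-454-5p (4.54 ± 1.83), hsa-miR-301b (4.01 ± 1.53), hsa-miR-301a-3p (2.57 ± 1.30) and hsa-miR-130b-5p (2.46 ± 0.279). hsa-miR-454-3p, at 2.01 ± 0.736, and hsa-miR-130a-5p, at 0.936 ± 0.771, did not pass the test.

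**Figure D2:**
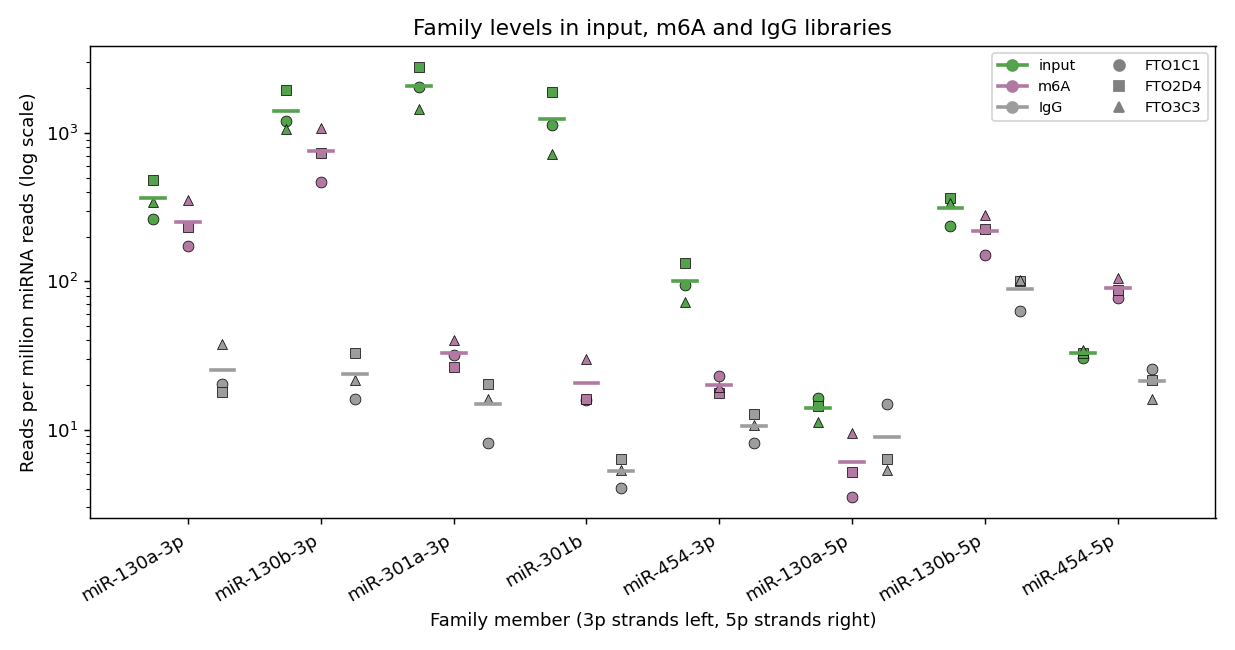
Level of each of the 8 members in RPM (log axis) in the 3 input, 3 m6A and 3 IgG libraries, with symbols for the derivatives and lines for the group means. The m6A points of hsa-miR-301a-3p (26.4 to 40.4 RPM) and hsa-miR-301b (15.8 to 29.96 RPM) lie far below their inputs, whereas those of hsa-miR-130b-3p (471 to 1082 RPM) lie closer to theirs and far above IgG.

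hsa-miR-130b-3p had 471, 735 and 1082 RPM in the m6A libraries, against 16.2, 33.1 and 21.5 RPM with IgG. In each derivative the m6A library was far above IgG, and the log2 fold change was 4.98 (SE 0.45, edgeR adjusted p = 2.24e-08). hsa-miR-130a-3p had 172, 233 and 354 RPM against 20.2, 17.8 and 37.5 RPM, a log2 fold change of 3.38 (SE 0.43, edgeR adjusted p = 2.69e-06). Again all 3 m6A libraries lay above all 3 IgG libraries.

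The other 3′ arm strands lay nearer to their IgG levels. hsa-miR-301a-3p had 31.6, 26.4 and 40.4 RPM with the m6A antibody and 8.09, 20.3 and 16.1 RPM with IgG, a log2 fold change of 1.25 (SE 0.48, edgeR adjusted p = 0.0443). hsa-miR-301b had 15.8, 16.1 and 29.96 RPM against 4.05, 6.36 and 5.36 RPM, a log2 fold change of 2.08 (SE 0.62, edgeR adjusted p = 0.0106). The groups did not overlap for either, but the IgG values of hsa-miR-301b rest on 3, 5 and 1 reads, and its ratio of 5.59 in FTO3C3 had a 95% counting interval of 0.987 to 222. The 3 IgG reads of hsa-miR-301a-3p in FTO3C3 gave a ratio of 2.51 (0.847 to 12.3). hsa-miR-454-3p had 22.8, 17.6 and 19.5 RPM against 8.09, 12.7 and 10.7 RPM, the last from 2 reads (ratio 1.82, interval 0.490 to 15.2). Its m6A libraries lay above its IgG libraries, without passing the test (log2 fold change 0.99, SE 0.51, edgeR adjusted p = 0.125).

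hsa-miR-454-5p, from the other arm of the same hairpin, had 77.3, 87.3 and 106 RPM in the m6A libraries, against 25.6, 21.6 and 16.1 RPM with IgG (log2 fold change 2.00, SE 0.42, edgeR adjusted p = 0.000778). The last IgG value rests on 3 reads, and that ratio was 6.57 (interval 2.24 to 32.0). hsa-miR-130b-5p was the member with the most IgG reads, 63.4, 100 and 102 RPM, against 151, 224 and 282 RPM with the m6A antibody (log2 fold change 1.30, SE 0.35, edgeR adjusted p = 0.00543). hsa-miR-130a-5p ranged from 3.51 to 9.45 RPM with the m6A antibody and from 5.36 to 14.8 RPM with IgG, and the groups overlapped. Its single IgG read in FTO3C3 gave a ratio of 1.76 (interval 0.301 to 71.1).

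The background of this comparison was high, since 40.2% of the 2181 miRNAs tested were called higher in m6A than in IgG and 1.15% lower. The median log2 fold change was 0.90 over all of them and 1.65 over the 8 members. With TMM factors, with DESeq2, or with totals that left out miR-6080, the calls fell to 3 members, hsa-miR-130a-3p, hsa-miR-130b-3p and hsa-miR-454-5p. hsa-miR-301a-3p was also lost when any derivative was left out, with log2 fold changes of 0.91, 1.82 and 1.03 (edgeR adjusted p = 0.303, 0.0588 and 0.122) without FTO1C1, FTO2D4 and FTO3C3.

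Against the input, the same m6A libraries divided the 3′ arm strands. hsa-miR-301a-3p and hsa-miR-301b fell to a small part of their input level, hsa-miR-454-3p fell less, hsa-miR-130b-3p was 1.87-fold lower, and hsa-miR-130a-3p did not pass the test. In total, 4 members were lower, 1 was higher and 3 did not pass. Over the 2181 miRNAs tested, the shares called were 10.6% lower and 65.7% higher. The m6A libraries are the same as in the comparison with IgG. With control IgG, each 3′ arm strand was also below input in 3 of 3 derivatives. By geometric mean ratio, IgG was 145-fold below input for hsa-miR-301a-3p, 224-fold for hsa-miR-301b and 60.2-fold for hsa-miR-130b-3p. For hsa-miR-130a-3p and hsa-miR-454-3p it was 14.8-fold and 9.38-fold below, on few IgG reads. Low levels of the miR-301 strands relative to input were thus not particular to the m6A libraries.

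hsa-miR-301a-3p had 2034, 2774 and 1444 RPM in the inputs and 31.6, 26.4 and 40.4 RPM in the m6A libraries. It was the most abundant member of the family in the inputs and among the scarcer ones after precipitation. The log2 fold change was -5.93 (SE 0.45, edgeR adjusted p = 4.55e-09), a 61.1-fold lower level and the 7th lowest of 2181 miRNAs. hsa-miR-301b had 1134, 1888 and 720 RPM in the inputs and 15.8, 16.1 and 29.96 RPM in the m6A libraries. Its log2 fold change of -5.79 (SE 0.48, edgeR adjusted p = 9.62e-09) was the 9th lowest and a 55.4-fold lower level. For both, no m6A library came near any input.

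hsa-miR-454-3p had 94.4, 133 and 72.6 RPM in the inputs and 22.8, 17.6 and 19.5 RPM in the m6A libraries. The groups did not overlap, and the log2 fold change was -2.28 (SE 0.40, edgeR adjusted p = 5.00e-05). hsa-miR-130b-3p had 1203, 1955 and 1066 RPM in the inputs and 471, 735 and 1082 RPM in the m6A libraries. It was lower in FTO1C1 and FTO2D4 and level in FTO3C3, so the groups overlapped (log2 fold change -0.91, SE 0.36, edgeR adjusted p = 0.0271). This call was lost without FTO1C1 (-0.67, adjusted p = 0.238), without FTO2D4 (-0.66, adjusted p = 0.210) and with totals that left out miR-6080 (-0.43, adjusted p = 0.315). hsa-miR-130a-3p, with 263, 483 and 343 RPM against 172, 233 and 354 RPM, had a log2 fold change of -0.56 (SE 0.35, edgeR adjusted p = 0.152).

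Of the 5′ arm strands, hsa-miR-454-5p had 30.5, 32.9 and 34.7 RPM in the inputs and 77.3, 87.3 and 106 RPM in the m6A libraries, a log2 fold change of 1.46 (SE 0.38, edgeR adjusted p = 0.00176). It was the only member called higher against input, with groups that did not overlap. TMM factors put it at 0.08 and DESeq2 at -0.12, and neither called it. hsa-miR-130b-5p went from 236, 367 and 338 RPM to 151, 224 and 282 RPM (log2 fold change -0.54, SE 0.33), and hsa-miR-130a-5p from 16.3, 14.4 and 11.3 RPM to 3.51, 5.14 and 9.45 RPM (-1.001, SE 0.51). Both were lower in 3 of 3 derivatives without passing the test, although hsa-miR-130a-5p passed it without FTO3C3 (-1.66, edgeR adjusted p = 0.0334).

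**Figure D3:**
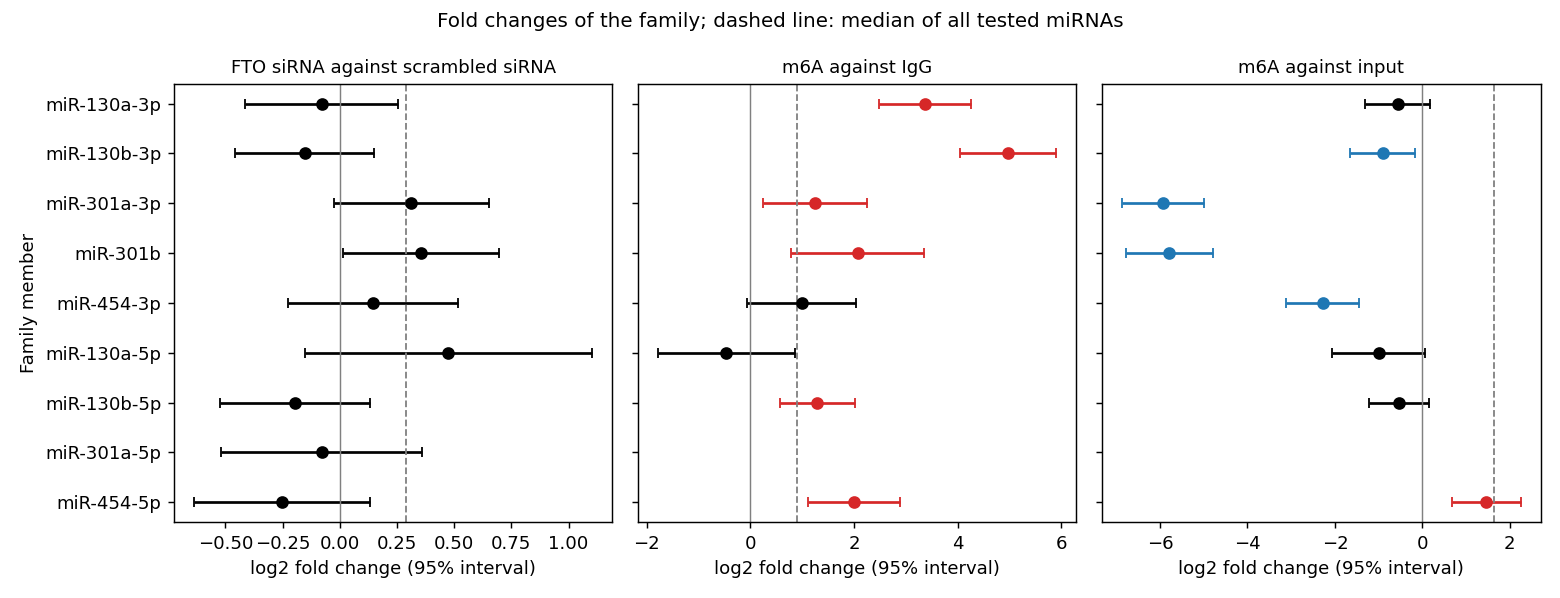
Log2 fold change with 95% interval of each member in the knockdown, in m6A against IgG and in m6A against input, on axes of different length. Red marks members called higher, blue those called lower, black those not called, and the dashed line is the median of all tested miRNAs (0.29, 0.90 and 1.64).

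Of all 2181 miRNAs tested, 10.6% were lower and 65.7% higher in m6A than in input, and the median log2 fold change was 1.64, against -0.95 over the 8 members. Relative to that median, every member was lower. TMM factors, which moved the median of all miRNAs to 0.29, gave -7.30 for hsa-miR-301a-3p, -7.16 for hsa-miR-301b, -3.66 for hsa-miR-454-3p, -2.26 for hsa-miR-130b-3p and -1.91 for hsa-miR-130a-3p, and called 7 members lower. All 8 members had their highest ratio of m6A to input in FTO3C3, and the share over all miRNAs was not computed. For 6 of the 8, the ratio of IgG to input was also highest in FTO3C3. The m6A library of FTO3C3 was the deepest (4973238 reads) and its input had the lowest share of miR-6080 (15.5%). The part of depth and of miR-6080 in these ratios was not tested.

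Differences between strands within derivatives, which need no scaling, were large. The log2 ratio of m6A to input of hsa-miR-130b-3p exceeded that of hsa-miR-301a-3p by 4.65, 5.30 and 5.18 (mean 5.05 ± 0.34) and that of hsa-miR-301b by 4.81, 5.46 and 4.61 (mean 4.96 ± 0.44). hsa-miR-130a-3p exceeded hsa-miR-301a-3p by 5.42 ± 0.23 and hsa-miR-454-3p by 1.75 ± 0.27. By contrast, hsa-miR-301a-3p and hsa-miR-301b, the pair with 21 of 23 identical bases, differed by -0.09 ± 0.42, with the sign of FTO3C3 opposite to the other derivatives. hsa-miR-454-3p lay between the miR-301 and the miR-130 strands, 3.67 ± 0.37 above hsa-miR-301a-3p and 1.37 ± 0.62 below hsa-miR-130b-3p. Of the 10 pairs, 9 had the same sign in 3 of 3 derivatives, each with p = 0.25 in the exact two-sided sign-flip permutation test, the smallest it can give, and 0.278 after adjustment. Against IgG, hsa-miR-130b-3p exceeded hsa-miR-301a-3p by 3.77 ± 0.77 and hsa-miR-301b by 3.07 ± 0.15, also in 3 of 3.

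The make-up of the 3′ arm reads in each library shows the same division. hsa-miR-301a-3p and hsa-miR-301b together took 67.0, 64.5 and 59.3% of these reads in the inputs and 6.65, 4.14 and 4.61% in the m6A libraries (95% Wilson intervals 4.61 to 9.503, 3.22 to 5.31 and 4.16 to 5.11%). hsa-miR-130a-3p and hsa-miR-130b-3p took 31.0, 33.7 and 38.7% in the inputs and 90.1, 94.1 and 94.1% in the m6A libraries. The order of both pairs was thus the opposite in every derivative. In the IgG libraries the miR-301 pair took 21.4, 29.6 and 23.5% of few reads (Wilson intervals from 9.56 to 47.3%), between the inputs and the m6A libraries. hsa-miR-454-3p made up 1.94 ± 0.0907% of the input reads and 2.06 ± 1.01% of the m6A reads, although it was 6.88 ± 1.25% with scrambled siRNA.

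**Figure D4:**
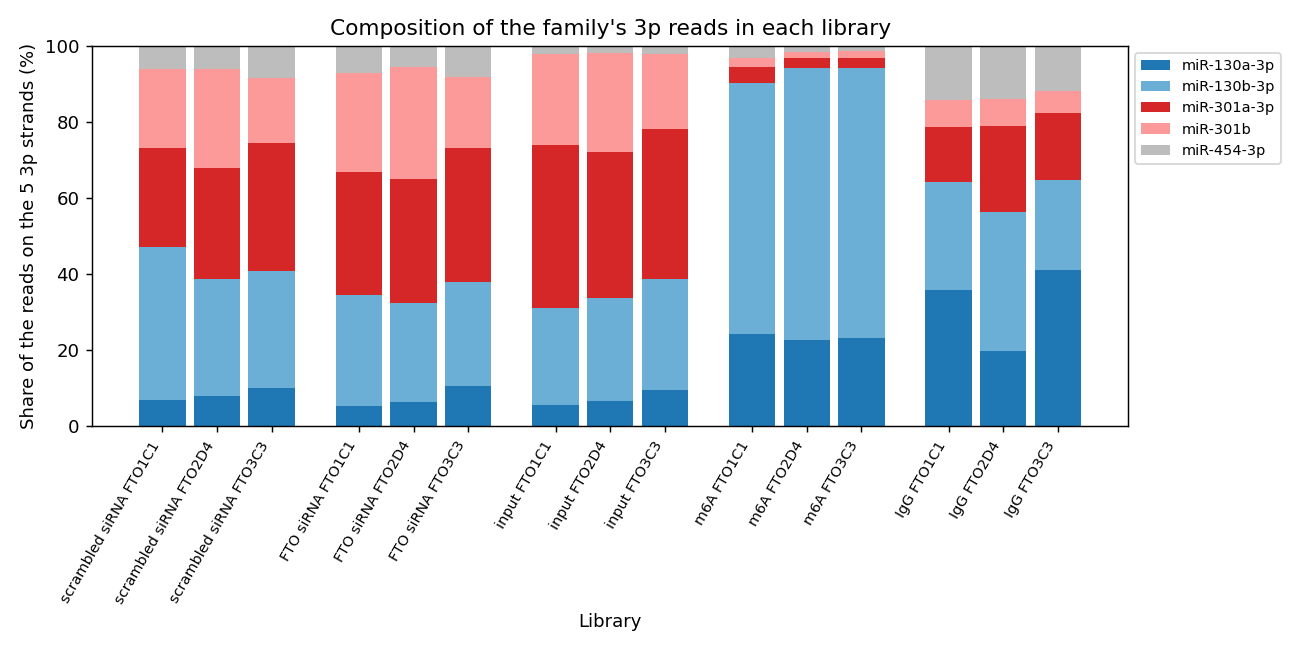
Share of each of the 5 strands from the 3′ arm among their summed reads in every library, in percent. The red segments (hsa-miR-301a-3p and hsa-miR-301b) take 46.8 to 67.0% in the scrambled siRNA, FTO siRNA and input libraries and 4.14 to 6.65% in the m6A libraries, where the blue segments (hsa-miR-130a-3p and hsa-miR-130b-3p) take 90.1 to 94.1%.

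The ratio of reads of genomic neighbours differed between the inputs and the precipitates. hsa-miR-301b and hsa-miR-130b-3p, whose hairpins lie 245 bases apart, had a ratio of reads of 0.861 ± 0.161 in the inputs and of 0.637 ± 0.182 and 0.902 ± 0.223 with scrambled and FTO siRNA. In the m6A libraries it was 0.0277 ± 0.00581, compared with 0.231 ± 0.0333 for IgG. The ratio of hsa-miR-301a-3p to hsa-miR-454-3p, both within SKA2, was 20.8 ± 0.844 in the inputs, 1.65 ± 0.368 in the m6A libraries and 1.37 ± 0.321 with IgG. With scrambled siRNA it was 4.36 ± 0.376. The inputs and the knockdown controls came from different preparations of RNA, and no test was made between them.

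The balance of the arms of a hairpin differed between libraries too. Reads of hsa-miR-454-3p outnumbered those of hsa-miR-454-5p by 3.09, 4.04 and 2.10 to 1 in the inputs, whereas the ratio was 0.295, 0.202 and 0.184 in the m6A libraries. The more abundant arm of miR-454 was therefore the 3′ arm in every input and the 5′ arm in every m6A library. The log2 ratio was lower in the m6A libraries (m6A minus input -3.39, -4.32 and -3.51, mean -3.74 ± 0.51, lower in 3 of 3, exact sign-flip permutation p = 0.25, adjusted 0.357 over 10 tests). The IgG libraries had ratios of 0.316, 0.588 and 0.667, so the 5′ arm was the more abundant there as well, on 19, 17 and 3 reads of hsa-miR-454-5p.

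For miR-130b, the ratio of the 3′ to the 5′ arm was 5.09, 5.32 and 3.16 in the inputs, 3.12, 3.29 and 3.83 in the m6A libraries, and 0.255, 0.329 and 0.211 with IgG. The m6A libraries were close to the inputs and far from IgG, by a log2 difference of 3.71 ± 0.44 in 3 of 3 derivatives. For miR-130a the ratios were 37.4 to 49.0 in the m6A libraries, 16.1 to 33.6 in the inputs and 1.36 to 7 with IgG, so the m6A libraries stood above the inputs (log2 difference 0.78 ± 0.72, higher in 3 of 3), whereas those of miR-130b did not (-0.37 ± 0.57, higher in 1 of 3). With FTO siRNA the balance of miR-130b hardly moved (log2 difference 0.04 ± 0.02), those of miR-454 and miR-301a were 0.40 ± 0.42 and 0.39 ± 0.37 further to the 3′ arm, and that of miR-130a was -0.62 ± 0.73. The exact permutation p-values, adjusted over the 10 tests, were 0.357 or 0.5.

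The letters of the sequences were compared with motifs of m6A. AAC or GAC, the core of the m6A consensus in mRNA, was in 1 of the 8 members with an entry, hsa-miR-301a-5p, against 36.1% of 2370 mature human entries. The most discriminating 4-letter motif of the study's own search, which was chosen on these libraries and starts with A, goes on with A, G or U, then with A or G, and ends with A, was in hsa-miR-130b-3p and hsa-miR-301b, both as AUGA, against 31.5% of all entries. Among the strands with an entry, it was thus shared by hsa-miR-130b-3p, 1.87-fold lower in m6A than in input, and hsa-miR-301b, 55.4-fold lower. Against IgG, their log2 fold changes were 4.98 and 2.08. The motif was absent from hsa-miR-301a-3p, which was 61.1-fold lower in m6A than in input, much like hsa-miR-301b. hsa-miR-130a-3p, also well above IgG, had no entry and was not searched for either motif. How the motif relates to the ratios to input or to IgG over all the 3′ arm strands was therefore not tested. Adenosine made up 36.4% of hsa-miR-130b-3p, 34.8% of hsa-miR-301a-3p and hsa-miR-301b and 26.1% of hsa-miR-454-3p, with a median of 22.2% over all entries. Only the mature strand was searched, and a match is a description of its letters and not a site of methylation.

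Outside the named hairpins, hsa-miR-3666 and hsa-miR-4295 have the same seed, AGUGCAA. They were rare, with 12.9 ± 0.692 and 12.2 ± 2.82 RPM with scrambled siRNA. hsa-miR-3666 had 7, 26 and 21 reads in the inputs and 24, 83 and 342 in the m6A libraries, and was higher against input (log2 fold change 2.27, SE 0.42, edgeR adjusted p = 7.90e-05) but did not pass against IgG (1.05, SE 0.43, adjusted p = 0.0578). hsa-miR-4295 had 25, 41 and 26 reads in the inputs and 0, 8 and 23 in the m6A libraries, and was lower (log2 fold change -2.34, SE 0.54, edgeR adjusted p = 0.000645). Thus of both seed mates 1 was higher and 1 lower against input, and 0 were called in the knockdown or against IgG.

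Over the 15 libraries, with each experiment centred on its own mean log2 level, hsa-miR-454-3p followed the miR-301 strands more closely than the miR-130 strands. Pearson's r was 0.966 between hsa-miR-130a-3p and hsa-miR-130b-3p, 0.991 between hsa-miR-301a-3p and hsa-miR-301b, and 0.984 and 0.980 between these and hsa-miR-454-3p. Between the miR-130 strands and the other 3 it was 0.701 to 0.795. The libraries form 5 groups that all these values share, so r describes the pattern over groups. Among 1226 other miRNAs, the nearest to hsa-miR-130b-3p was hsa-miR-10b-5p (r = 0.987) and the nearest to hsa-miR-301a-3p was hsa-miR-148a-3p (r = 0.992). hsa-miR-130a-3p was nearest to hsa-miR-938 (r = 0.976), hsa-miR-301b to hsa-miR-579-3p (r = 0.990) and hsa-miR-454-3p to hsa-miR-374a-3p (r = 0.987). Such likeness was common, since 77 to 96 miRNAs had an r over 0.9 with each strand.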

How the data were processed

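Small RNA of 3 HEK293 derivatives was sequenced, with 3 libraries per group paired by derivative. The authors trimmed adapters with cutadapt and matched reads by maximal exact matches to mature miRNAs of miRBase. The authors deposited counts of reads per miRNA without normalization, with no alignment to a genome. Levels in RPM were computed here, as counts divided by the total miRNA reads of the library.

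Differences were tested over all miRNAs with the quasi-likelihood test of edgeR 4.0.16 (R 4.3.3, filterByExpr at a count of 10, total miRNA reads as library sizes without TMM, derivative as a block, all 9 RIP-seq libraries in 1 fit), with Benjamini-Hochberg adjustment at 0.05. Arm balances and pairs of 3′ arm strands were compared with exact two-sided sign-flip permutation tests over 3 derivatives. The tests of pairs against input and IgG, and leaving out derivatives in all tests of pairs, were added after the data were seen. Alternatives were TMM factors, DESeq2 1.42.0, no low-count filter, no block, totals without miR-6080 or miR-10a-5p, and each derivative left out. An IgG count of 0 would have been set to 3 reads, and none occurred among the members.

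The members and lists were chosen with earlier results of these data known. The miRNAs named were all members, miRNAs of the same seed, the most similar in pattern (the nearest of each is printed), miR-6080 and miR-10a-5p. Libraries are paired because a shared name marks the same derivative. Deviations of paired libraries from the group means correlated at 0.137 to 0.225 between scrambled and FTO siRNA, 0.0960 to 0.175 between m6A and IgG, and -0.0901 to -0.0377 between m6A and input. No libraries of a group were copies (chi-square per degree of freedom 6.11 to 145). The replicates are the 3 derivatives, so p-values measure the spread between these libraries. Intervals of ratios and shares (95%) cover counting error only. Scripts were tested on simulated data.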

Additional observations from a re-analysis of the deposited data

How the results depend on the processing

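The count of members called in the knockdown was 0 under every alternative run, and the replicate block changed no call of a member in any comparison: with no replicate block, 0 members were called in the knockdown, 6 against IgG and 5 against input. Over all miRNAs the block mattered more, since without it the knockdown had 37 calls higher and 4 lower in place of 118 and 12, and without FTO1C1 it had 0 (327 at an unadjusted p under 0.05). For m6A against IgG, TMM factors, DESeq2 and totals without miR-6080 each gave 3 members called, all 3 higher, and leaving out a replicate gave 5 to 5. For m6A against input, TMM factors and DESeq2 each called 7 members lower and 0 higher, totals without miR-6080 called 3 lower and 1 higher, and leaving out a replicate gave 3 to 5 lower. The split of all calls moved with the scale, from 118 higher and 12 lower to 21 and 34 (TMM) or 33 and 58 (DESeq2) in the knockdown. It moved from 876 and 25 to 482 and 335, 405 and 385, or 480 and 224 without miR-6080 for m6A against IgG, and from 1433 and 232 to 683 and 564, 524 and 605, or 1624 and 160 without miR-6080 for m6A against input.

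Signs turned for hsa-miR-454-3p in the knockdown (-0.15 with TMM factors and with DESeq2, and -0.03 to 0.25 when a replicate was left out). They also turned for hsa-miR-301a-5p in the knockdown (-0.16 to 0.08 when a replicate was left out), for hsa-miR-130a-5p in m6A against IgG (-1.09 to 0.26) and for hsa-miR-454-5p in m6A against input (-0.12 with DESeq2). None of these had an adjusted p under 0.05 in the setting that turned it, and the cause was not tested. The falls of hsa-miR-301a-3p, hsa-miR-301b and hsa-miR-454-3p against input and the rises of hsa-miR-130a-3p, hsa-miR-130b-3p and hsa-miR-454-5p against IgG passed under every alternative run. Several IgG values of members rest on 1 to 3 reads.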
